A study of Mus musculus with 2 samples.

Results

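The genes described here are Mir15a and Mir16-1 on chromosome 14, Mir15b and Mir16-2 on chromosome 3, and Mir497b on chromosome 11, 5 of the 1973 microRNA genes counted. The rule that picks them lists names, matched through Ensembl IDs, and uses no measured value. The samples were whole livers taken at embryonic day 14.5 from B6NCrl mice, sequenced as 2 small-RNA libraries (RNA under 30 nucleotides) that form 1 group, for which the labels name no treatment or engineered allele. The labels call each sample a single liver, yet state a pooled sex, 1 donor ID shared by both and different collection days. How far the 2 livers are independent is therefore uncertain, and p-values set 1 library against the other by counting error alone. Own-strand reads at microRNA genes came to 2353946 in replicate 1 and 3132763 in replicate 2, and levels are given as CPM of these totals. With 1 group there was no comparison between conditions, and the questions were how much each locus gave and whether the livers differed.

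MicroRNAs are short RNAs cut from a hairpin. They lower the output of messenger RNAs that pair with their seed, the bases near the 5′ end. The miR-15/16 family is known for holding back the cell cycle, with cyclins and cyclin-dependent kinases and the survival gene Bcl2 among its studied targets, and the chromosome 14 pair is known as a tumour suppressor in lymphoid cells. At this stage the fetal liver is the main site of blood formation and holds many dividing cells.

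The members' mature 5p sequences are shown because they share a seed and therefore count as 1 family. For Mir497b the line is miR-497a-5p of the other strand, since its own annotated product, miR-497b, does not have this seed. They are RefSeq sequences of build GRCm38.p6, written 5′ to 3′, with bases 2 to 8 in capitals. The last 3 lines are family genes outside the 5 members.
miR-15a-5p: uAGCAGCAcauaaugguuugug
miR-15b-5p: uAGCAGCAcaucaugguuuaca
miR-16-5p: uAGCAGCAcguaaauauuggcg
miR-497a-5p: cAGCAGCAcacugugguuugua
miR-195a-5p: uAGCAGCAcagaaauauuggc
miR-322-5p: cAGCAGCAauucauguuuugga
miR-503-5p: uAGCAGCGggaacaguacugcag
All but miR-503-5p have the same bases 2 to 8, and miR-503-5p differs from miR-15a-5p at the last of them. Counted from 1 at the 5′ end, miR-15a-5p and miR-15b-5p are identical at 18 of 22 positions and differ by A12C, G20A, U21C and G22A. Of 21 positions compared, miR-16-5p and miR-195a-5p differ only by G10A and U11G. A read of either whole miR-15 can thus be placed on its own gene.

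The miR-16 copies cannot be separated in this way, since Mir16-1 and Mir16-2 make the same miR-16-5p. Their hairpins are shown with the longest stretch they share in capitals.
Mir16-1 hairpin: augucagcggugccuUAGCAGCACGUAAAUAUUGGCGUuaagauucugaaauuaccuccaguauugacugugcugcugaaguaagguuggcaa
Mir16-2 hairpin: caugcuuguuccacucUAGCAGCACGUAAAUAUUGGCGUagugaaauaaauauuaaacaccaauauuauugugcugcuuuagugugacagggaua
The stretch of 23 bases starts at the first base of miR-16-5p and ends 1 base beyond it, so a read of the 22-base mature form lies whole within both genes. The opposite arms differ between the copies, and the longest run they have in common, in capitals, is 9 bases.
miR-16-1-3p: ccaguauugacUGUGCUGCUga
miR-16-2-3p: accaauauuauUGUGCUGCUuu
Reads that map to more than 1 place were left out of the gene counts in the deposited tables. They numbered 2175174 in replicate 1 (34.01% of all reads) and 2668030 in replicate 2 (33.07%), and how many of them are miR-16-5p was not tested. A whole 22-base miR-16-5p read fits both copies and so belongs with the reads left out. The values of Mir16-1 and Mir16-2 are therefore lower limits of all reads from these genes and not levels of miR-16-5p. Whether the counted reads were 3p arms or forms that reach past the shared stretch was not given.

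The 2 pairs are built alike. Mir15a (ENSMUSG00000093007.1, chr14:61632027-61632110) and Mir16-1 (ENSMUSG00000092995.1, chr14:61631880-61631972) lie on the minus strand, 54 bases apart. Both are intronic in all 8 transcripts that span them of Dleu2, a long non-coding RNA. Mir15b (ENSMUSG00000065580.1, chr3:69009772-69009835) and Mir16-2 (ENSMUSG00000065606.1, chr3:69009902-69009996) lie on the plus strand, 66 bases apart. Both are intronic in all 5 spanning transcripts of Smc4, which encodes a condensin subunit used to compact chromosomes in mitosis. In each pair the miR-15 hairpin comes first in the direction of transcription. Coordinates are those of GENCODE M21 on GRCm38, the assembly also called mm10.

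Mir497b (ENSMUSG00000070109.2, chr11:70234692-70234816) is annotated on the minus strand, opposite to Mir497, the gene of miR-497a on the plus strand, whose own ID was not analysed here. No host transcript of another gene type spans it. Its hairpin is shown with the complement of miR-497a-5p in capitals, because this decides which strand's reads stand for miR-497.
Mir497b hairpin: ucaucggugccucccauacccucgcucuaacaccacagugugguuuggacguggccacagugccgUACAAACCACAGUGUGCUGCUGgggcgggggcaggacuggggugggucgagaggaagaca
The reverse complement of this 125-base hairpin holds the whole 84-base Mir497 hairpin, which lies 241 bases before Mir195a, its plus-strand partner. Reads of miR-497a are therefore counted on the opposite strand of Mir497b, and that column was used for it.

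**Figure D1:**
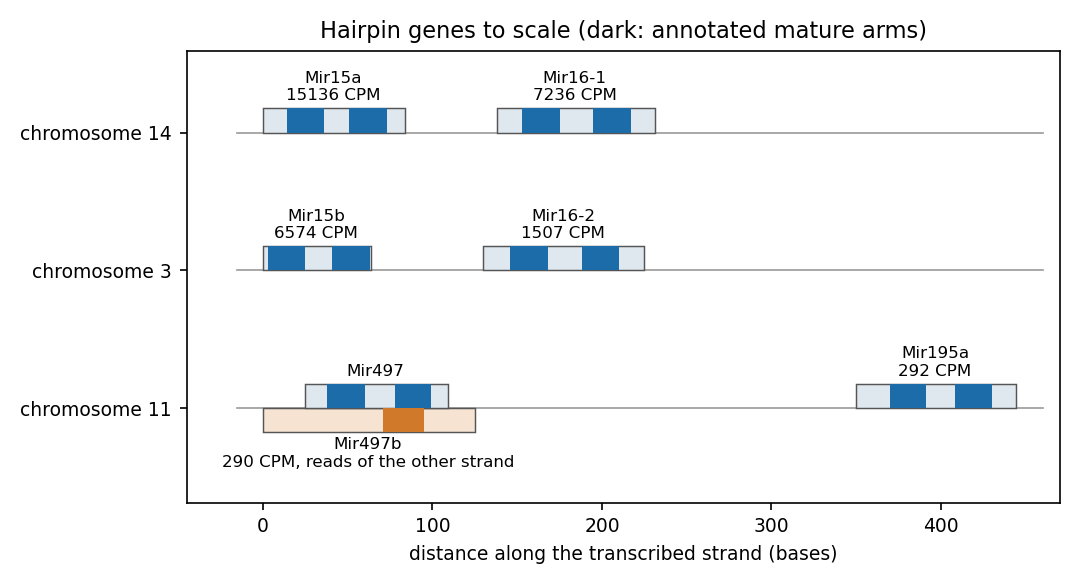
Map to scale of the hairpin genes of the 3 loci, with the distance in bases along the transcribed strand on the horizontal axis. Pale boxes are hairpin genes, dark boxes annotated mature arms, orange boxes lie on the other strand, and numbers are mean levels of the 2 livers. Mir15a (15136 CPM) and Mir15b (6574 CPM) precede Mir16-1 (7236 CPM) and Mir16-2 (1507 CPM), and Mir497b overlaps Mir497 on the other strand.

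By counted reads, the chromosome 14 pair was the more abundant source. Mir15a had a level of 15426 CPM in replicate 1 against 14847 CPM in replicate 2, a mean of 15136 ± 409 (SD, n = 2), and was at rank 21 in both livers. This is the highest level of the 5 members, 1.54% and 1.48% of all own-strand counts. Mir16-1, the copy downstream of it, had 7337 and 7134 CPM (7236 ± 144) and rank 36 in both livers. The pair together came to 22763 CPM in replicate 1 and 21981 CPM in replicate 2, or 2.24% ± 0.0553 of the counts.

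The chromosome 3 pair was lower. Mir15b had 6498 CPM in replicate 1 against 6649 CPM in replicate 2 (6574 ± 107), at ranks 39 and 38. Mir16-2 had 1525 and 1488 CPM (1507 ± 26.1) and rank 82 in both livers. The sum of the pair was 8023 and 8138 CPM, or 0.808% ± 0.00812 of the counts. None of these 4 genes had a read on the opposite strand in either library.

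Mir497b was the lowest member. Its opposite-strand level was 289 CPM from 680 reads in replicate 1 and 290 CPM from 909 reads in replicate 2 (290 ± 0.907), at ranks 144 and 141. These ranks set Mir497b among the own-strand levels of all other genes. On its own strand it had 0 and 2 reads, which is within the 3 counts that a count of 0 allows (1.27 CPM in replicate 1 and 0.958 CPM in replicate 2). Opposite-strand reads were thus 100% and 99.8% of those at the gene. Mir195a, the partner of miR-497a, had 298 and 286 CPM, and the ranges of these neighbours overlap.

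The order Mir15a, Mir16-1, Mir15b, Mir16-2, Mir497b was the same in both livers, and the ranges of adjacent members over the 2 livers do not overlap. The nearest are Mir16-1 and Mir15b, where the lower value of the first (7134 CPM) lies above the higher value of the second (6649 CPM). The place of the miR-16 copies in this order is uncertain because their counts are lower limits. Counts were not divided by gene length, since the 5p products listed for the members, miR-497a-5p for Mir497b, are all 22 bases long. The counting interval of each level is narrow, for example 15267 to 15585 CPM for Mir15a in replicate 1 and 268 to 311 CPM for Mir497b (95%, exact Poisson). All intervals cover counting error only, since reads copied by PCR are not independent molecules.

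**Figure D2:**
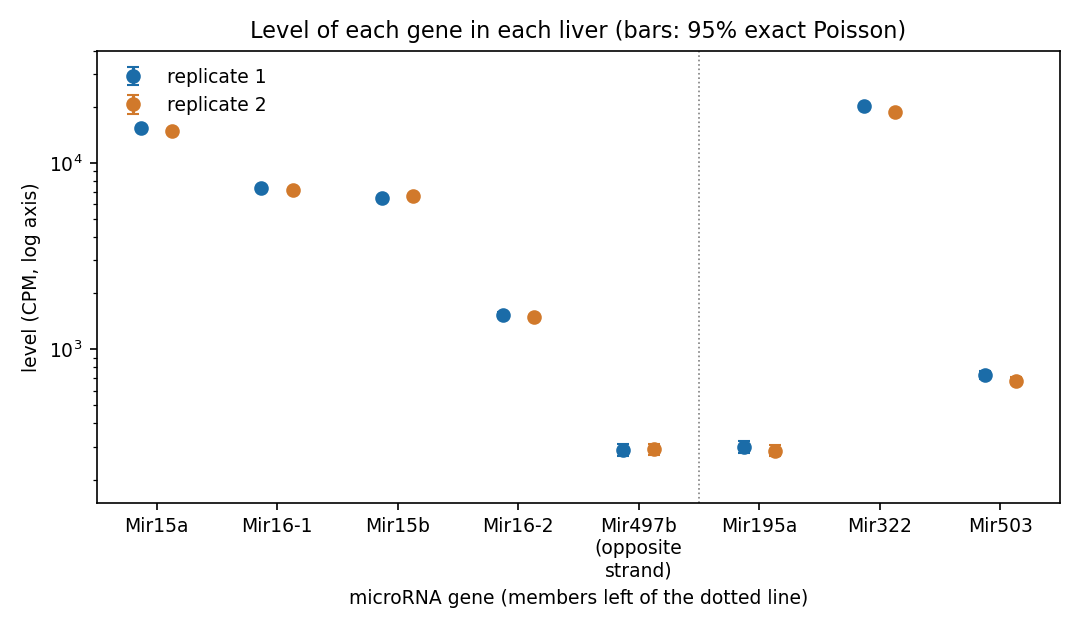
Level in CPM (vertical log axis) of the 5 members and of 3 further family genes in each liver, with 95% exact Poisson intervals that are mostly smaller than the points. In both livers Mir15a is highest among the members, at 15426 and 14847 CPM, and Mir497b lowest, at 289 and 290 CPM, next to Mir195a.

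Of the reads that could be placed on 1 gene, chromosome 14 held the larger share for both miR-15 and miR-16. For miR-15, where reads can be told apart, Mir15a took 70.4% of the counts of Mir15a and Mir15b in replicate 1 (95% exact binomial interval 70.0 to 70.8) and 69.1% in replicate 2 (68.7 to 69.4). That is 2.37 and 2.23 reads of Mir15a for each of Mir15b. For miR-16, Mir16-1 took 82.8% (82.3 to 83.3) and 82.7% (82.3 to 83.2) of the counts placed on either copy, or 4.81 and 4.79 reads for each of Mir16-2. This describes the placed reads only, since miR-16-5p reads that fit both copies are not among them. Summed, the chromosome 14 pair held 73.9% and 73.0% of the placed reads of both pairs, with the same limit.

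Within each pair the miR-15 gene had the higher count, and by more on chromosome 3. Mir15a had 2.10 and 2.08 times the counts of Mir16-1, whereas Mir15b had 4.26 and 4.47 times those of Mir16-2. Both ratios may be too high, since miR-16 reads that map to both copies were not counted.

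Shares within a library do not depend on how the libraries are scaled, so their difference between the livers was tested directly. The share of Mir15a in the miR-15 counts was 1.30 percentage points lower in replicate 2 (adjusted p = 5.14e-06, two-sided Fisher's exact test with Benjamini-Hochberg adjustment over 7 shares). That of the chromosome 14 pair was 0.959 points lower (adjusted p = 2.61e-05 by the same exact test). The share of Mir16-1 in the miR-16 counts moved by -0.0513 points (adjusted p = 0.893, exact test). Within the pairs, Mir15a in the chromosome 14 pair moved by -0.222 points (adjusted p = 0.578, exact) and Mir15b in the chromosome 3 pair by 0.722 points (adjusted p = 0.0949, exact). These tests compare 2 libraries and carry no estimate of the spread between livers of 1 kind.

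**Figure D3:**
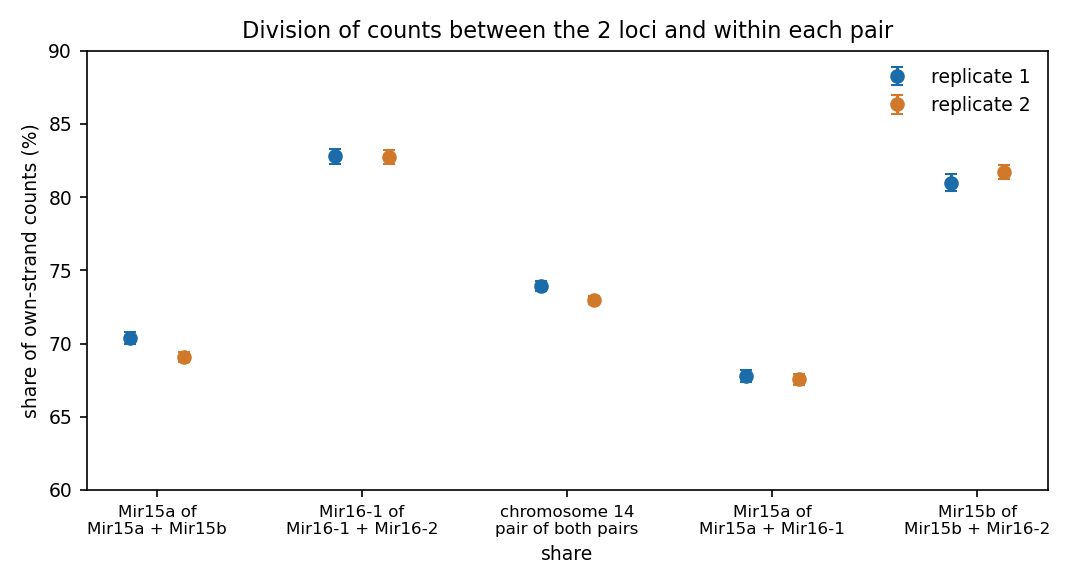
Share of counts in percent (vertical axis from 60 to 90) that each named gene or pair takes of the genes named under it, in each liver, with 95% exact binomial intervals. Mir15a takes 70.4% and 69.1% of the miR-15 counts, Mir16-1 82.8% and 82.7% of the miR-16 counts, and the intervals of the livers are apart for the first and overlap for the second.

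Between the livers the members differed by a few percent. Mir15a in replicate 2 was at 0.962 times its level in replicate 1 (95% exact binomial interval 0.949 to 0.976, log2 ratio -0.06, adjusted p = 2.72e-07). Mir16-1 was at 0.972 times (0.953 to 0.992, log2 ratio -0.04, adjusted p = 0.0157). These p-values are from a two-sided exact binomial test of the counts with Benjamini-Hochberg adjustment over 333 features, which were the 332 genes that reached 10 counts in both libraries and the opposite strand of Mir497b. All 5 members passed that minimum, and Mir15a and Mir16-1, 2 of the 5, passed the test, both higher in replicate 1. Of all features tested, 40.8% passed, 17.7% being higher in replicate 1 and 23.1% in replicate 2, so the members' count lies near the background.

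The other members did not pass. Mir15b in replicate 2 was at 1.02 times its level in replicate 1 (1.00 to 1.05, adjusted p = 0.0680, exact binomial test). Mir16-2 was at 0.976 times (0.934 to 1.02, adjusted p = 0.421, exact) and Mir497b at 1.00 times (0.908 to 1.11). The median log2 ratio of the 5 members was -0.04, beside 0.03 over all 333 features, and the median absolute log2 ratio over all features was 0.16. Without Mir122 in the library totals, the call of Mir16-1 was lost (adjusted p = 0.295, exact binomial) and Mir15b passed with a log2 ratio of 0.05 (adjusted p = 0.00142). The directions of Mir15b and Mir497b, which were not called, turned under other scalings, Mir15b to a log2 ratio of -0.000518 with DESeq2 size factors and Mir497b to -0.03.

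**Figure D4:**
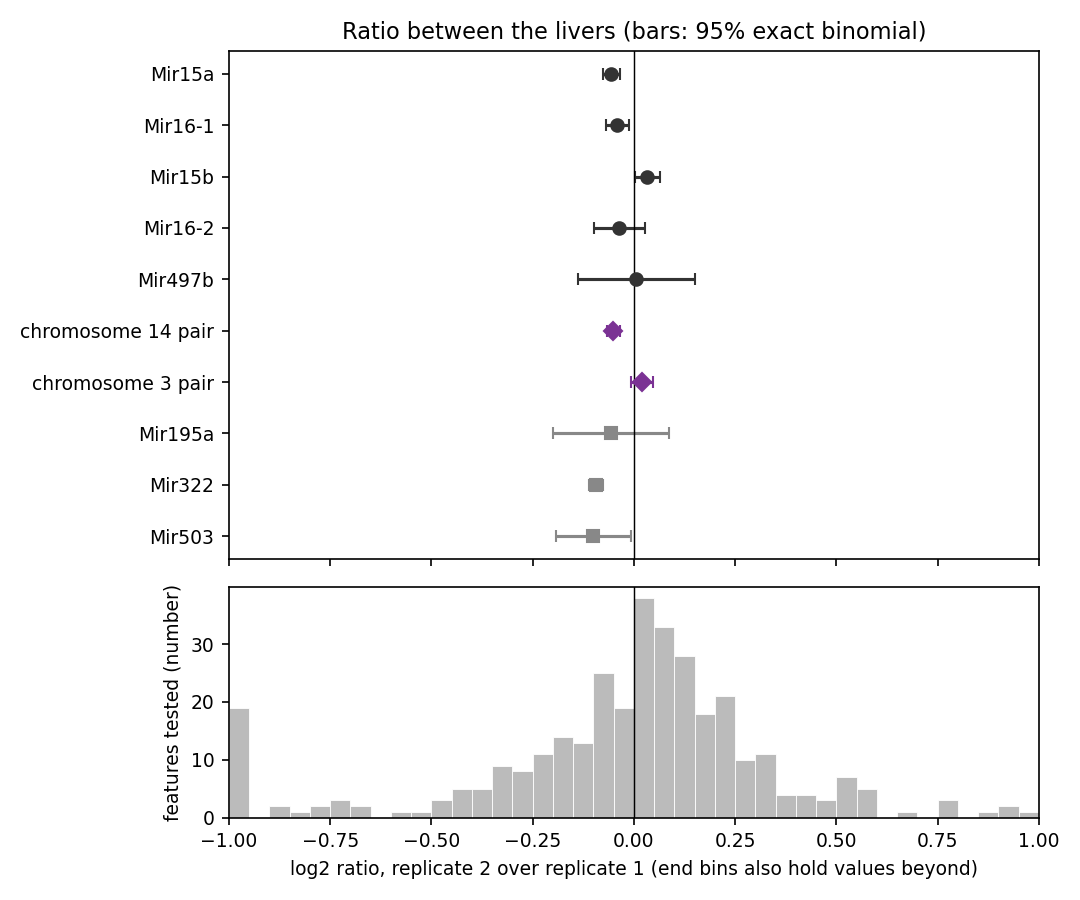
Upper panel, log2 ratio of the level in replicate 2 over replicate 1 for the members (circles), the sums of the pairs (diamonds) and 3 other family genes (squares), with 95% exact binomial intervals. Lower panel, number of the 333 tested features by log2 ratio on the same axis, where the members lie between -0.06 and 0.03 and the median of all features is 0.03.

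Markers of the liver's cell types also differed. Mir122, the hepatocyte microRNA, was at 97348 and 110371 CPM, 1.13 times as high in replicate 2, and Mir192 was at 1.04 times. The red cell microRNAs Mir451a (38020 and 30243 CPM) and Mir144 (11594 and 9272 CPM) were at 0.795 and 0.800 times, the granulocyte and monocyte microRNA Mir223 at 0.942 times and the endothelial Mir126a at 0.937 times. All 6 passed the exact test, Mir192 with an adjusted p of 0.00803 that became 0.319 by TMM and 0.394 by DESeq2 size factors. Outside the marker list, Mir486, also of red cells, was at 1.27 times and Mir155, also of white cells, at 1.34 times. Both were called higher in replicate 2 by the exact test, unlike Mir451a, Mir144 and Mir223, and were named after their values were seen. The muscle genes Mir1a-1 and Mir133a-1 were at 0 in both libraries, the neural Mir124a-1 had 0 and 1 counts, and Mir9-1 was not analysed here. Reads that map to several places were left out, so these low counts do not show that the microRNAs were absent. Mir206 of muscle had 31.0 and 14.05 CPM, 0.453 times as high in replicate 2, and passed (adjusted p = 0.000141, exact binomial). Larger differences lay outside the marker list, in genes named here after their values were seen. Of neural genes, Mir137 had 570 and 70 counts (0.0923 times), Mir219a-2 127 and 11 (0.0651 times) and Mir153 68 and 12 (0.133 times). Such drops were not limited to neural genes. Mir10b had 14984 and 1826 counts (0.0916 times) and Mir615 713 and 142 (0.150 times). Each of these drops passed the exact test. Mir219a-1, which shares a mature product with Mir219a-2, was at 0.936 times and did not pass. The part of such differences in those of the members was not tested, and in whole tissue fewer cells of a type and less RNA per cell cannot be told apart.

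The rest of the seed family adds mainly a chromosome X locus. The list held 13 genes of the table, the 5 members and 8 others, of which Mir322, Mir503 and Mir195a reached 10 counts in both libraries. Mir1907, Mir195b, Mir6342, Mir6353 and Mir6419 had no count, which allows up to 1.27 CPM in replicate 1 and 0.958 CPM in replicate 2. Mir322, the mouse counterpart of human miR-424, had 20105 and 18840 CPM, above Mir15a in both livers. Mir503, its neighbour (chrX:53053984-53054054), had 727 and 679 CPM. Of the 3, Mir322 passed the test at 0.937 times its replicate 1 level (0.926 to 0.948, adjusted p = 7.31e-25, exact binomial). Mir503 was at 0.933 times (adjusted p = 0.0752) and Mir195a at 0.961 times (adjusted p = 0.620), both by the same exact test. Mir503 passed by TMM (adjusted p = 0.0166) and by DESeq2 size factors (adjusted p = 0.0137).

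The 8 detected family genes summed to 5.12% ± 0.141 of the counts, of which the miR-16 part is a lower limit. Counts are per hairpin gene and not per arm, so how much of this sum came from arms with the seed was not tested. The chromosome 14 and chromosome 3 pairs held 59.0% of this sum in replicate 1 and 59.98% in replicate 2 (adjusted p = 4.60e-07, Fisher's exact test over the 7 shares). Both shares may be too low, since miR-16 reads that fit both copies were not counted. The chromosome X genes came to 20833 and 19519 CPM, between the chromosome 14 pair and the chromosome 3 pair in both livers. This place is uncertain for the same reason. The chromosome 11 genes, Mir497b on the opposite strand and Mir195a, came to 587 and 576 CPM, and Mir497b took 49.2% (46.6 to 51.9) and 50.3% (48.0 to 52.7) of them, a nearly even division that did not differ between the livers beyond counting error (adjusted p = 0.634, exact).

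By level, Mir15a stood next to Mir154 and Mir379 above and Mir30a and Mir93 below, and Mir16-1 next to Mir18 and Mir23b above and Mir744 and Mir101b below. Mir15b lay between Mir101b and Mir99b, and Mir16-2 between Mir532 and Mir323. Of 20 such neighbour places, 2 on each side of each member, 13 kept their order in both livers. Mir497b was placed by its opposite-strand level among own-strand levels. By ratio between the livers, the genes of at least 1000 CPM nearest to the chromosome 14 pair (0.966 times) were Mir140 (0.961), Mir431 (0.961) and Mir101b (0.959). Those nearest to the chromosome 3 pair (1.01 times) were Mir376c (1.01), Mir532 (1.02) and Mir26b (1.02). With 2 libraries this likeness is 1 ratio per gene. Of 85 genes searched, 15 lay within 0.05 on the log2 scale of the first pair and 29 of the second.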

How the data were processed

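The deposited tables hold raw read counts per microRNA gene, without a header, made by the authors from each library's own alignment to mm10 with annotation M4, per the notes deposited with the files. The aligner, the counter and any trimming were not given in the sources used here. Each table gives counts regardless of strand, on the gene's strand and on the opposite strand. Totals leave out the rows without a gene name. Of 6395680 reads in replicate 1 and 8068090 in replicate 2, these rows hold 18.6% and 17.7% as unmapped, 34.01% and 33.07% as mapped to several places and 10.6% and 10.4% as outside genes.

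IDs were matched without version to GENCODE M21 (1894 of 1973). All 5 members matched, and their mature sequences were found in RefSeq by symbol, that of miR-497a under Mir497. CPM were computed from own-strand counts over the own-strand total, with opposite-strand counts over the same total for Mir497b. Ratios were tested with an exact binomial test, two-sided, at these totals (scipy 1.17.1), at an adjusted p of 0.05. Log2 ratios add a pseudocount of 0.5. The exact binomial test was also run on simulated counts that held counting error only. Of 143 genes simulated without a difference, 2 were called, and of 50 with a fold of 1.25, 31 were called. Spread between livers was not simulated, nor were the other steps.

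The members and lists were chosen with earlier results of these data known, though the members' rule uses names and no values. Named are the members, detected seed family genes, the 2 nearest genes in level on each side, the 3 nearest in ratio, cell type markers, and partner copies of the 5 highest genes with a shared mature product. The seed family list held the genes named for this family and every gene whose mature microRNA shares bases 2 to 8 with miR-15a-5p. Alternatives were minimums of 1 or 100 counts or none, both strands, TMM (edgeR 4.0.16) and DESeq2 1.42.0 size factors, other totals, pseudocounts of 0.1 and 10, other member sets and leaving out each replicate.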

Additional observations from a re-analysis of the deposited data

How the results depend on the processing

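Without the highest gene, Mir122, in the totals, levels were 16889 CPM for Mir15a, 8074 for Mir16-1, 7336 for Mir15b, 1681 for Mir16-2, 323 for Mir497b, 24963 for the chromosome 14 pair and 9018 for the chromosome 3 pair. With totals regardless of strand they were 13635, 6518, 5921, 1357, 261, 20152 and 7278 CPM in the same order. These shifts follow from the changed totals and keep the order of the members. The seed family sum was 42467 CPM without Mir16-1 and Mir16-2, which share a stretch of at least 20 bases. For Mir15a only the mature sequences were searched for such a stretch, since its hairpin was not in the reference used. The chromosome 14 share of 73.5% was 69.7% with miR-15 genes only and 82.8% with miR-16 genes only. Leaving out each replicate in turn gave 72.98% to 73.9% for that share. No paired analysis was possible because there is 1 group.

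Mir15a passed the exact binomial test under all 9 alternatives, with adjusted p from 1.36e-17 to 0.00234. Mir16-1 passed under all but the total without Mir122 (log2 ratio -0.0196, adjusted p = 0.295), by which Mir15b passed (0.0543). Mir15b turned direction with DESeq2 size factors (-0.000518, adjusted p = 1). Mir497b, near 0 and not called, turned with counts regardless of strand (-0.00104), TMM (-0.0245), DESeq2 size factors (-0.0277) and totals regardless of strand (-0.00421). Mir16-2 passed under none, with adjusted p from 0.0813 to 0.808. The number of differing features was 136, and 127 to 147 under the alternatives. TMM and DESeq2 size factors turned its split from 59 against 77 higher in replicates 1 and 2 to 69 against 59 and 69 against 58. In all, 74 of 98 values kept direction and side of the threshold, stayed within the spread of the livers or, for the number of differing features, changed little. Part of this count was fixed in advance. With n = 2, leaving out a replicate always stays within the SD. Pseudocounts do not enter the p-values, and levels of genes without opposite-strand reads cannot change with counts regardless of strand. Minimums change a member's adjusted p only through the set of features tested. For Mir15a, Mir16-1, Mir15b and Mir16-2, counts and totals regardless of strand gave the same ratio and are not separate alternatives. Depth limits Mir497b most, whose interval allows a ratio of 0.908 to 1.11.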

Other observations

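The miR-16 copies were the leading pair among genes that share a mature product with another gene. Of 87 such genes by the RefSeq table, 41 had at least 10 counts in each library. By mean CPM Mir16-1 was at place 1 and Mir16-2 at place 4, and together they held 44.0% of this list's counts in replicate 1 and 41.7% in replicate 2. Among the 5 highest genes of the list, the other pairs with both copies in the table were divided less evenly. Mir92-1, in the miR-17-92 cluster, had 33.0 and 29.8 times the counts of Mir92-2, and Mir194-2 had 141 and 125 times those of Mir194-1, against 4.81 and 4.79 times for Mir16-1 over Mir16-2. Mirlet7f-2 was at place 5 with 908 and 922 CPM, and its partner Mirlet7f-1 was not analysed here. Lower in the list other pairs were divided more evenly, for example Mir30c-1 with 104 and 125 CPM and Mir30c-2 with 87.1 and 103 CPM, named after their values were seen. All these counts leave out reads that map to both copies.

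Mir497b was 1 of 11 genes whose reads, at least 10 in each library, lay mostly on the opposite strand, and was at place 9 among them by opposite-strand counts in replicate 1.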
